A study of Rattus norvegicus with 4 samples.

Results

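SOX proteins are transcription factors that share a DNA-binding HMG box and set or hold the identity of progenitor cells in many tissues. The SOX genes described here were *Sox2*, *Sox4*, *Sox6*, *Sox9* and *Sox11*, 5 of the 30058 genes listed for the rat anterior pituitary. They were taken by symbol, and each symbol named 1 row. The set was chosen with earlier results of these data known. *Sox2* and *Sox9* are known from pituitary stem cells, *Sox4* and *Sox11* form the SoxC group of progenitor and neuronal factors, and *Sox6* belongs to the SoxD group.

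The cells came from postpubertal Sprague Dawley rats: females were 44 days old and in diestrus, and males were 59 days old. Each sex was 1 pool of 4 pituitaries, dispersed to single cells and loaded on 2 lanes of a droplet instrument that tags the 3′ ends of transcripts. The lanes of 1 sex were therefore technical replicates, and sex cannot be told apart from pool and age. P-values for sex, also for its difference between types, measure only the spread between lanes. P-values between cell types come from sums per type and sex, with type and sex in the fit. Their spread is how far type differences disagree between the female and male pools, and a sex difference within a type adds to it. The labels name no treatment.

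The lanes held 1868 and 1861 female and 2047 and 2085 male cells, and values below are given in that order. Of all 7861 cells, 6849 remained after quality control and typing by marker genes, with 16218657 to 19725723 unique molecular identifiers (UMIs, counted transcripts) per lane. The Y-linked gene *Eif2s3y* had 0 and 1 UMIs in the female lanes against 2038 and 2100 in the male lanes. *Ddx3y*, also Y-linked, had 10 and 8 UMIs in the female and 11 and 14 in the male lanes and did not separate them. A total of 30 barcode sequences occurred in more than 1 lane. The types were folliculostellate cells (FSC, 2315 cells), the hormone-producing cells (HPC), erythrocytes (E, 361), leukocytes (Le, 548) and endothelial cells (EC, 133). HPC comprised corticotrophs (C, 792), gonadotrophs (G, 239), thyrotrophs (T, 86), somatotrophs (S, 1889) and lactotrophs (L, 486). FSC are the non-hormonal glia-like cells of the gland, among which stem cells are counted. The median depth was 6900 UMIs per cell in FSC, 11473 in C, 13659 in S and 8246 in E. Globin fills the UMIs of E, so their depth cannot be set beside that of the other types.

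Promoter windows from RefSeq (GRCr8, 250 bases before to 50 after the annotated start) were held for 3 of the 5 genes. They are shown because the differences between cell types described below concern these genes, with the SOX-type letters ACAATG and ACAAAG, searched on both strands, in capitals. Either motif occurred in 29.1% of all 33469 windows of this length.
Sox2 (GRCr8, chr2:119464881-119465180, plus strand): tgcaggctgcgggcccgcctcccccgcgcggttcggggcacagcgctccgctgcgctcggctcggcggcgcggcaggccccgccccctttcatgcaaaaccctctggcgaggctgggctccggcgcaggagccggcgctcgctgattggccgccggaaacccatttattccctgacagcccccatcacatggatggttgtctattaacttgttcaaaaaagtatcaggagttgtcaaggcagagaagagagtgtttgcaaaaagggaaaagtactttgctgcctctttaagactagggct
Sox11 (GRCr8, chr6:49738745-49739044, minus strand): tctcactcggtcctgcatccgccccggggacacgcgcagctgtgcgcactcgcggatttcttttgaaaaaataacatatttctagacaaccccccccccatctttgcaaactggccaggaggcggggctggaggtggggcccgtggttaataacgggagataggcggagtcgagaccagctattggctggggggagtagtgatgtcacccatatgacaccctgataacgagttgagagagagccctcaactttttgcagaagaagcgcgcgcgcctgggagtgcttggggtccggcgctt
Sox6 (GRCr8, chr1:179665322-179665621, minus strand): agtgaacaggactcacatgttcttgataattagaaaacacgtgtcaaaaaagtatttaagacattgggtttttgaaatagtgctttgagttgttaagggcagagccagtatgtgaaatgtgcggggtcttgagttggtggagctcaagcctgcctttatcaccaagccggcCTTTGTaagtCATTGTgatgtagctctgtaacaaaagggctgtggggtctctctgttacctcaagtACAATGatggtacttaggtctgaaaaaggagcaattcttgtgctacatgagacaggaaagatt
The *Sox2* window held 23 CpG dinucleotides and the *Sox11* window 20, against a median of 7 over all windows, while the *Sox6* window held 3. The *Sox6* window had 3 motif matches, and these letters were not in the windows of *Sox2* and *Sox11*.

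*Sox2*, required for the maintenance of pituitary progenitors, was found in most FSC and in few cells of the other types. It lay above its threshold, a split of the log-scaled values made by Otsu's method, in 67.4% and 69.3% of female and 71.0% and 69.2% of male FSC. The level was 206, 190, 212 and 207 CPM in the 4 lanes, where CPM are UMIs of the gene per 1000000 UMIs of all genes in the same cells. The pooled FSC level was 23.8 times that of all HPC together. On the fitted scale, FSC exceeded the mean of the 5 HPC types by 4.79 ± 0.22 (log2, SE; edgeR quasi-likelihood test, adjusted p = 6.1e-11). In that contrast 17.2% of the 13624 genes tested were called higher in FSC at an adjusted p below 0.001 and 9.19% were called lower.

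**Figure D1:**
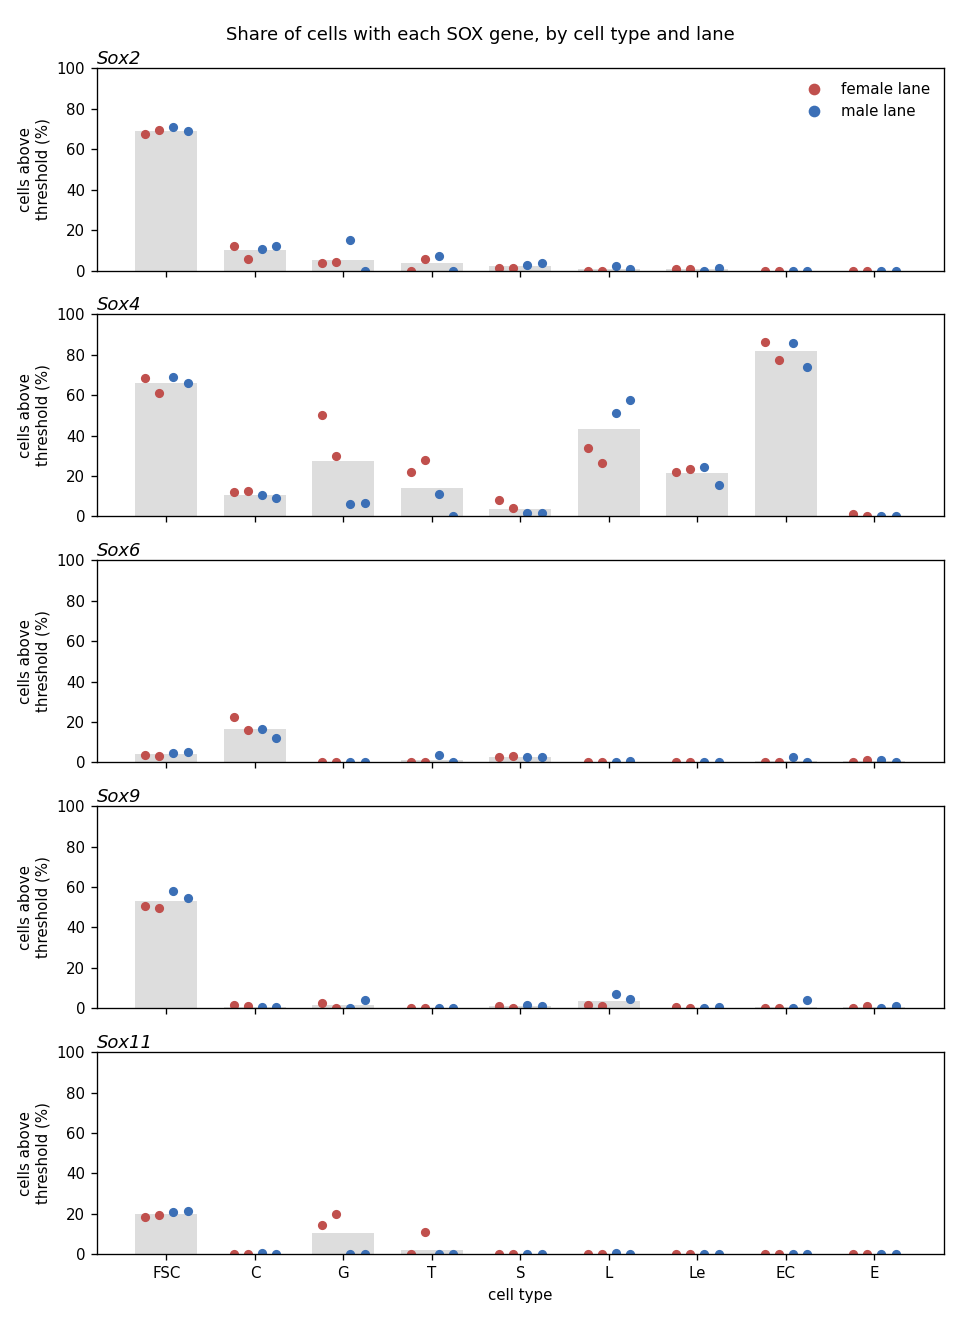
Share of cells above threshold (percent, y axis) for each SOX gene in the 9 cell types (x axis); bars give all cells of a type and points the 4 lanes, female lanes first. *Sox2* and *Sox9* stood highest in FSC, *Sox4* in EC and *Sox6* in C, and the 2 female lanes of G lay at 14.5% and 20% for *Sox11* against 0 in both male lanes.

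Over all lanes, corticotrophs held the highest *Sox2* level among HPC, at 20.6 CPM, followed by G at 10.3 CPM. G stood at 7.27, 9.51, 25.1 and 4.29 CPM by lane and so lay above C in the male lane of 2047 cells. The share above threshold was 12.1%, 5.9%, 10.4% and 12.3% of C in the 4 lanes, and the level 24.2, 16.6, 19.7 and 22.4 CPM, so the sexes overlapped. FSC held 9.90 times the level of C. C exceeded the mean of the other 4 HPC types by 2.07 ± 0.31 (log2, SE; edgeR adjusted p = 0.00019). Of all genes tested in this contrast, 4.28% were called higher in C and 1.81% lower. Without the male lane of 2085 cells the C difference was 1.79 and missed the limit of 0.001 (adjusted p = 0.0021).

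FSC transcripts were counted in C beside *Sox2*, and the part that RNA released from FSC has in the *Sox2* counts of C was not tested. At least 1 *Sox2* UMI was found in 155 of 792 C (19.6%), 10.5% of G, 4.65% of T, 6.78% of S and 1.23% of L. It was found in 0 of 361 E, which allows up to 0.831% of E with a UMI. This sets no limit on the cells that express the gene. C held 132 *Sox2* UMIs for every 100 UMIs of the 4 FSC markers (*S100b*, *Fxyd1*, *Gstm2*, *Capn6*), whereas FSC held 6.89. These markers also typed the cells, so FSC were high and C low in them by the rule. They stood at 5.40 CPM in E, with a UMI in 4.71% of cells, against 15.6 CPM and 14.8% in C. Per 100 marker UMIs, G held 44.6, T 35.7, S 38.6 and L 5.84 *Sox2* UMIs. *Sox9* gave 7.69% of the *Sox2* and *Sox9* UMIs together in C (exact 95% interval 4.46 to 12.2%) and 47.9% in FSC (46.7 to 49.0%). Among the 82 C above the *Sox2* threshold, 13.4% had an FSC marker UMI, and 14.9% of the 710 other C did. The FSC markers summed to 23.5 CPM in the former and 14.8 CPM in the latter, at median depths of 9619.5 and 11838.5 UMIs. The female lane of 1868 cells held 10 of the 19 marker UMIs of the *Sox2* C, and without it the levels were 14.1 and 13.5 CPM. Leaving out every HPC with an FSC marker UMI gave a C difference of 2.36 (edgeR adjusted p = 7.2e-05). A marker UMI was found in only 14.8% of C, so cells without one are not known to be free of FSC RNA. *Pomc*, the corticotroph hormone precursor, stood at 161036 CPM in the *Sox2* C and 205547 CPM in the others.

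Outside these types, *Sox2* was above threshold in 24 of 60 melanotrophs, the *Pomc* cells of the intermediate lobe (40%, exact interval 27.6 to 53.5%), and in 48 of 59 posterior pituitary cells (81.4%, 69.1 to 90.3%). Of 51 pericytes, 1 had a *Sox2* UMI. Melanotrophs came to 56 of 60 from the male lanes, and the 4 female cells held 1 *Sox2* UMI. The FSC markers stood at 167 CPM in melanotrophs, with a UMI in 46.7% of them, against 15.6 CPM and 14.8% in C, and their part in the *Sox2* share was not tested. In the posterior pituitary cells these markers stood at 1600 CPM, with a UMI in 96.6%. *S100b* was also among the genes that selected those cells, and how many of them were FSC was not tested. In melanotrophs, *Sox9* gave 12.2% of the *Sox2* and *Sox9* UMIs (5.71 to 21.8%). The posterior pituitary cells stood at 49.3% (43.4 to 55.2%) and FSC at 47.9%. These populations were set aside by their markers before the filters on depth and doublets and entered no test.

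*Sox9*, a factor of glial and cartilage lineages, met the study's size criteria for an FSC-specific gene over all lanes pooled. These ask for over 20% of FSC and under 5% of every other type. It was above threshold in 50.5% and 49.6% of female and 58.3% and 54.6% of male FSC. Its FSC level was 214, 156, 201 and 182 CPM. The pooled FSC level was 56.3 times that of HPC, and 72.5, 87.9, 43.2 and 49.0 times by lane. FSC exceeded the mean of the HPC types (edgeR adjusted p = 5.0e-09), and the fitted fold is not given because T had no *Sox9* UMI, so that it depends on the prior count. The next type was L at 3.70% of cells. By lane L ranged from 0.971% to 6.87%, and 5.56% of L had at least 1 UMI, so the limit of 5% was not met by each lane or measure. A *Sox9* UMI was found in 0 of 86 T, which allows up to 3.49% of T with a UMI. *Sox2* met the size criteria but was not specific, since 10.4% of C were above threshold. In C, *Sox9* did not pass the test against the other HPC (edgeR adjusted p = 0.92). Among the set-aside cells, 45 of 59 posterior pituitary cells were above the *Sox9* threshold (76.3%), and these cells also held the FSC markers as given above.

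*Sox4* had the broadest pattern. EC held the highest share, 86.4%, 77.4%, 85.7% and 73.9% in the 4 lanes, followed by FSC at 68.5%, 61.2%, 69.1% and 66.2%. Above threshold, L stood at 43.2% of cells, G at 27.2%, Le at 21.5%, T at 14%, C at 10.9% and S at 3.76%. Without the female lane of 1868 cells G fell to 16.6%, below Le at 21.3%, and S to 2.49%, and the sexes differed in G as given below. The order also depended on the measure. With at least 1 *Sox4* UMI counted, L stood at 69.1%, G at 44.8%, T at 36.0%, C at 29.0%, Le at 25.0% and S at 20.8%. The FSC level was 400, 304, 349 and 349 CPM. FSC exceeded the mean of the HPC types by 2.43 ± 0.38 (log2, SE; edgeR adjusted p = 0.00055), and this missed the limit without the female lane of 1861 cells (2.50, adjusted p = 0.0011). In E, 0.277% of cells were above threshold and 0.831% had a *Sox4* UMI. The median depth of E was above that of FSC, but globin fills it.

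*Sox11* followed *Sox4* in FSC at lower counts. The share was 18.3%, 19.6%, 20.9% and 21.4% of FSC and the level 41.1, 39.5, 36.3 and 37.8 CPM. FSC exceeded the mean of the HPC types (edgeR adjusted p = 4.1e-05), and the pooled fold was 23.8. The HPC of the 4 lanes held 33, 35, 5 and 1 *Sox11* UMIs, so the fold was 12.7 and 12.1 in the female lanes, 89.3 in the male lane of 2047 cells and set by 1 UMI in the other. Among HPC, G held 60 of the 74 *Sox11* UMIs, described with the sexes below. C held 2 UMIs and Le none, which allows at most 0.547% of Le with a UMI.

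*Sox6*, a factor without its own activation domain, stood highest in C among the cell types. It was above threshold in 22.4%, 16%, 16.5% and 11.8% of C, with 46, 31, 42 and 31 UMIs. The level was 25.9, 14.7, 15.3 and 11.6 CPM, which overlapped between the sexes. The pooled C level was 9.20 times that of the other HPC together (14.5, 8.46, 8.13 and 7.22 times by lane), and C exceeded their mean in the fit (edgeR adjusted p = 1.9e-05). G had no *Sox6* UMI in 239 cells, which allows up to 1.26% of G with a UMI, so the fitted fold depends on the prior count and is not given. The share over all C was 16.3%, under the 20% that the size criteria ask for, and S stood at 2.81%. FSC had *Sox6* in 4.23% of cells at 5.65 CPM, and the FSC difference missed the limit (edgeR adjusted p = 0.0040). That contrast averages the types, and the pooled FSC level was 1.21 times that of HPC.

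The order of types was tested in all 28 pairs of 8 types (E was left out). Over all genes and pairs, 14.1% of tests passed the limit. *Sox2* passed in 10 pairs, FSC above each of the other 7 types and C above L, Le and EC. C above G, its neighbour in the order, missed the limit (0.99 ± 0.41, edgeR adjusted p = 0.12), and C above S also missed the limit (adjusted p = 0.0025). *Sox9* passed in 7 pairs, all FSC above another type, with no difference called among the rest. *Sox4* passed in 2 pairs, FSC above S and EC above S, and EC and FSC were not separated (adjusted p = 0.54). *Sox11* passed in 2, FSC above C and above S. *Sox6* passed in 3, C above G, L and Le, while C above FSC missed the limit (FSC less C -1.74 ± 0.45, adjusted p = 0.0058). C above S, T and EC also missed it (edgeR adjusted p = 0.0019, 0.028 and 0.0044). G and Le had no *Sox6* UMI.

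Co-detection in FSC was counted as cells with at least 1 UMI of both genes, against the number expected if the genes were independent within a lane and within each of 5 strata of depth. *Sox2* and *Sox9* were found together in 984 FSC (42.5%) where 970 were expected, a ratio of 1.01. By lane the ratio was 1.04, 1.01, 1.03 and 0.99, so the number together was near that expected in every lane. *Sox2* had a UMI in 71.7% and *Sox9* in 56.5% of FSC, which limits how far the ratio can rise above 1. It therefore does not show that the genes were independent. Without strata of depth, *Sox9* was found in 59.3% of FSC with *Sox2* and 49.4% of those without, and was higher with *Sox2* in each lane. After thinning the ratio was higher than in any lane, as given with the processing below. By threshold, 38.1% of FSC had both genes, 31.1% *Sox2* alone, 15.1% *Sox9* alone and 15.7% neither, and the median depth fell from 7436 UMIs in cells with both to 6020 in cells with neither. Of all FSC, 3.46% had no UMI of the 5 genes and 1.08% had all 5. *Sox4* with *Sox11* gave a ratio of 1.05, between 1.02 and 1.09 over the lanes. *Sox9* with *Sox11* gave 1.11, between 0.97 and 1.28, which spanned no enrichment. *S100b*, which helped to define FSC, was found with *Sox2* at 1.0 times the expected number. It had a UMI in 2114 of 2315 FSC, so this ratio could hardly differ from 1 and shows no relation of the 2 genes.

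In C, *Sox2* and *Sox6* were together in 26 cells where 25.5 were expected, with lane ratios from 0.84 to 1.32. *Sox2* and *Sox4* were together in 56 C where 45.7 were expected, with ratios of 0.88 and 0.93 in the female and 1.5 in both male lanes. The lane ratios rested on 4 to 9 cells for *Sox2* with *Sox6* and on 9 to 21 cells for *Sox2* with *Sox4*.

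Clustering without any SOX gene divided FSC into a larger cluster led by *Gpha2* (1588 cells), a second led by *Fam46b* and *Epcam* (675 cells), and a small one led by *Tppp3* (17 cells). *Sox4* was above threshold in 55.8 to 63.3% of the *Gpha2* cluster over the lanes and in 76.5 to 84.8% of the *Epcam* cluster. *Sox9* stood at 44.5 to 53.2% and 59.0 to 69.5%, and *Sox11* at 13.5 to 19.5% and 23.8 to 27.9%. *Sox2* overlapped, at 66.7 to 72.0% and 62.7 to 76.2%. The clusters were made from the same cells, so these values are a description without a test. Within them *Sox2* and *Sox9* were together at 1.01 and 1.03 times the expected number. All 17 cells of the *Tppp3* cluster were above the *Sox9* threshold, at a median depth of 16107 UMIs.

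**Figure D2:**
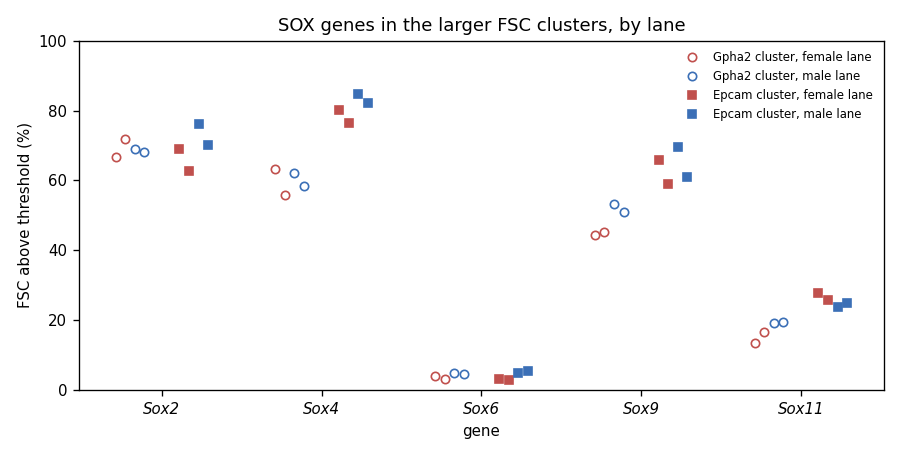
Share of FSC above threshold (percent, y axis) for each gene (x axis) in the *Gpha2* cluster (open circles) and the *Epcam* cluster (filled squares); each point is 1 lane. *Sox4*, *Sox9* and *Sox11* lay higher in the *Epcam* cluster in every lane, and *Sox2* and *Sox6* overlapped.

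Of 35 proliferating FSC, called from 14 or more above threshold out of 39 cell cycle genes, 15 had *Sox11* (42.9%, exact interval 26.3 to 60.6%) against 19.7% of 2280 other FSC. The *Sox11* level was 65.7 and 37.8 CPM. The proliferating cells had a median depth of 13271 UMIs and the others 6869, and the part of depth in the shares was not tested. *Sox9* was at 105 and 190 CPM and *Sox2* at 172 and 205 CPM in the same groups. The share above threshold was 45.7% and 53.3% for *Sox9*. For *Sox2* it was 77.1% and 69.1%, so its share and level went opposite ways.

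Sex was compared between lanes within each type. In G, *Sox4* was at 176 and 110 CPM in female and 29.6 and 15.0 CPM in male lanes, with no overlap. It was above threshold in 50% and 30% of female and 6.38% and 6.52% of male G. The male level was lower by a log2 value of -2.94 ± 0.31 (edgeR adjusted p = 9.0e-06), and missed the limit with outliers and doublets kept (-2.28, adjusted p = 0.0016). *Sox11* was at 32.2 and 30.6 CPM in female G and had no UMI in 93 male G, so the female level was at least 9.48-fold higher than the floor of 3 UMIs over the male cells (edgeR adjusted p = 0.00010). With DESeq2 *Sox11* missed the limit (adjusted p = 0.0011). Of all genes tested in G, 2.54% were called lower in males. Of the 38 female G with *Sox11*, 28 also had *Sox4*, where 25.9 were expected. The FSC markers stood at 33.2 and 19.0 CPM in female and 6.84 and 25.7 CPM in male G, which overlapped, and *Sox9* had 7, 0, 0 and 3 UMIs there. Over all lanes these markers stood at 40.2 CPM in G above the *Sox4* threshold and 16.9 CPM in the other G. The values were 50.5 and 19.0 CPM in the female lane of 1868 cells, and 19.5 and 18.9 CPM in the female lane of 1861 cells. The male G above the threshold held 1 and 2 marker UMIs by lane. The part of FSC RNA in the *Sox4* difference was not tested.

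**Figure D3:**
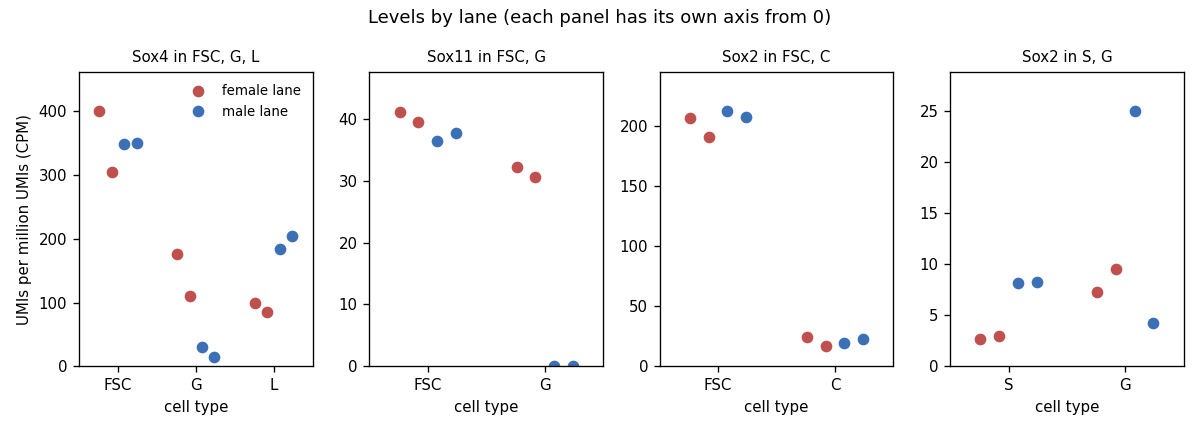
Level (CPM, y axis, each panel from 0 on its own scale) for *Sox4*, *Sox11* and *Sox2* in chosen types (x axis); each point is 1 lane. Female lanes of G lay at 176 and 110 CPM for *Sox4* against 29.6 and 15.0 CPM in male lanes. L showed the opposite order in CPM, where the fitted difference missed the limit (0.42 ± 0.12, log2, SE; edgeR adjusted p = 0.0022). In FSC the sexes overlapped for *Sox4*, and for *Sox2* the female lanes (206 and 190 CPM) lay just below the male lanes (212 and 207 CPM).

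In L, *Sox4* was at 98.9 and 85.6 CPM in female and 184 and 204 CPM in male lanes, with no overlap, but the difference missed the limit (0.42 ± 0.12, log2, SE; edgeR adjusted p = 0.0022). Scaling by library size alone gave 1.08 (adjusted p = 8.7e-14) and moved the median of all genes in L from 0.02 to 0.67. *Sox9* in L also missed the limit (adjusted p = 0.045). In L, 18.4% of genes were called in either direction.

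In S, *Sox2* was at 2.71 and 2.95 CPM in female and 8.14 and 8.26 CPM in male lanes, a male level higher by 1.47 ± 0.27 (log2, SE; edgeR adjusted p = 4.4e-05). This missed the limit without the female lane of 1868 cells (1.39, adjusted p = 0.0013), with cells typed by markers alone (1.29, adjusted p = 0.0012) and with DESeq2 (1.47, adjusted p = 0.019). The FSC markers were at 16.3 and 16.4 CPM in female and 13.5 and 16.8 CPM in male S. *Sox9*, which marks FSC, lay the same way in S, at 1.94 and 0.739 CPM in female and 4.60 and 4.01 CPM in male lanes, and missed the limit (1.63 ± 0.40, edgeR adjusted p = 0.0019). Its part in the *Sox2* difference was not tested. *Sox4* in S was lower in males (-0.61 ± 0.14, adjusted p = 0.00070), which missed the limit without either female lane or without the male lane of 2047 cells (adjusted p = 0.012, 0.0019 and 0.019), as it did with library size alone, markers alone and DESeq2, which called 0 of the 4 genes tested in S. In S, 5.07% of genes were called higher in males and 5.88% lower.

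In FSC none of the 5 genes passed the edgeR test for sex, 0 had an unadjusted p below 0.05 and DESeq2 called 0, with differences between -0.16 and 0.19 (log2; 4.77% of all genes were called). In C edgeR and DESeq2 called 0 of *Sox2*, *Sox4* and *Sox6* (0.625% of all genes called), and 1 of them, *Sox6*, had an unadjusted p below 0.05 (-0.62 ± 0.25, edgeR adjusted p = 0.33). *Sox4* was the gene of the set tested in T (1.14% called), Le (0.613%) and EC (0.934%), and it passed in none of them (adjusted p = 0.40, 0.96 and 0.42). The sex effect on *Sox4* in FSC differed from that in G (3.01% of genes called), as did that in G from that in L (3.68%). For *Sox2*, FSC differed from S (2.85%). Each gene was tested in 28 pairs of types.

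The genes most like each member were ranked by Pearson's r of log2(CPM + 1) over the 32 sums of 8 types and 4 lanes, among 12748 genes. The leaders were *Gpha2* for *Sox2* (r = 0.88), *Ccdc125* for *Sox4* (0.86), *Adra1b* for *Sox6* (0.87), *Slc26a7* for *Sox9* (0.92) and *Frmpd4* for *Sox11* (0.90). The sums share libraries and cell types, and r is a description.

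Of 28 genes known from pituitary stem cells and the embryonic Rathke pouch, 23 passed the filter on low values and 21 were called higher in FSC than in HPC, where 17.2% of all genes were. Their median difference was 5.06 against 0.09 over all genes (log2), and 4.94 with 5 genes that had no UMI in an HPC type set to their bound (3 UMIs per type) and 1 gene at the floor in FSC left out. *Hes1*, a Notch target, was higher by 6.77 ± 0.16, and *Hey2*, another Notch target, by 6.36 ± 0.22. The 2 genes tested and not called were *Pitx1* (-0.27 ± 0.15, edgeR adjusted p = 0.15) and *Nes* (adjusted p = 0.60), which had 1 UMI in FSC. In C, edgeR called 0 of the 23 (4.28% of all genes were called higher and 1.81% lower), while 6 had an unadjusted p below 0.05 and DESeq2 called 1. Of 10 cartilage matrix genes known as SOX9 targets, 4 passed the filter and edgeR and DESeq2 called 0 in FSC (median -0.93, and -0.69 without the 1 gene at the floor in FSC), with 3 at an unadjusted p below 0.05. Of 3 genes known as SoxC targets, *Tead2* (also in the first list) and *Dcx* were higher in FSC, the latter by 1.80, and *Tubb3* was lower (-5.73 ± 0.38).

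The file listed 13 further SOX genes, counting *Sry*, and 2 of the 18 in all, *Sox21* and *Sry*, had no UMI. EC held a set of their own: *Sox15* in 41.4%, *Sox17* in 40.6%, *Sox7* and *Sox18* each in 27.1% of EC, all under 5% in the other types. *Sox30* was found in 9.85% of S and at most 0.412% of any other type. *Sox5* was found in 12.1% of FSC and 12.1% of G, and *Sox12* in 7.83 to 18.0% of all types other than Le and E.

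**Figure D4:**
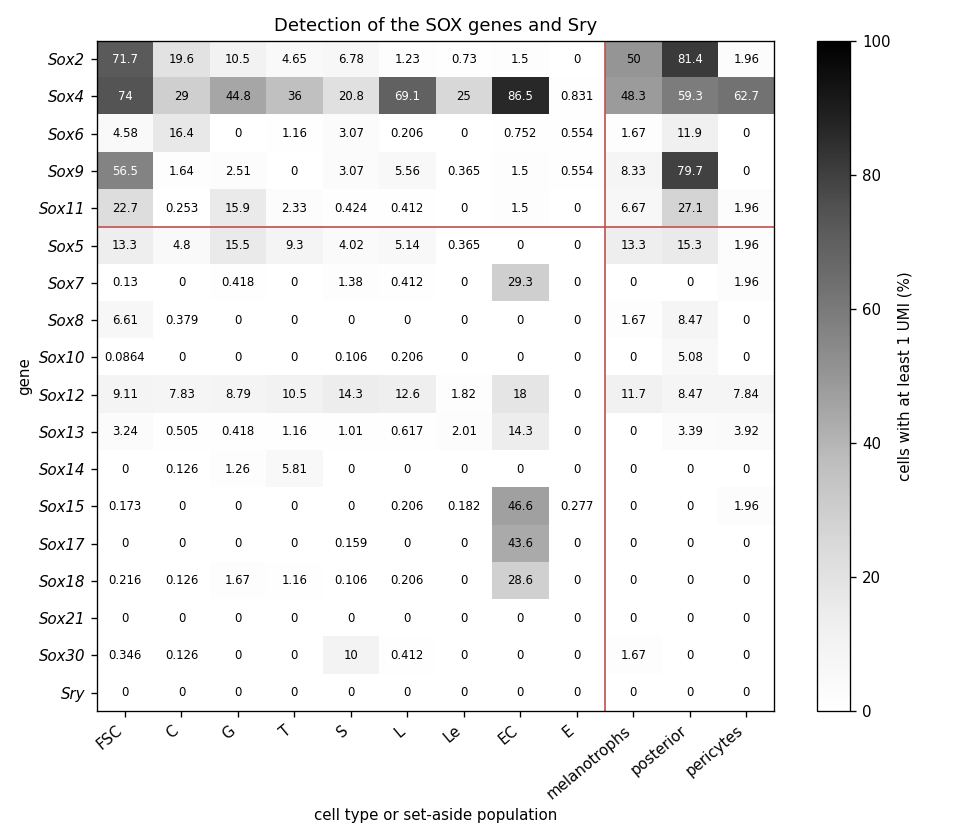
Percentage of cells with at least 1 UMI (grey scale and printed values) of each SOX gene and *Sry* (rows) in the 9 types and 3 set-aside populations (columns); the 5 genes described here are above the line. *Sox2* and *Sox9* share the FSC and posterior pituitary columns, *Sox2* reaches 50% of melanotrophs and *Sox9* 8.33%, and *Sox15* and *Sox17* lie in EC.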

How the data were processed

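Single-cell RNA-seq of rat anterior pituitary gave a gene by cell table of raw UMI counts, which the authors made with Cell Ranger 2.1 (per the labels' processing notes) and deposited as whole counts in 1 table. Reads had been aligned to an NCBI rat Rnor6 annotation with lengthened 3′ ends, and the lanes were merged after their mapped read depth was made equal, so differences in depth between lanes are partly removed. Lanes were read from barcode suffixes and matched to sex by the study's cell counts per lane.

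Cells were typed after the study's rules: markers above Otsu thresholds of log10 normalized UMIs, with at least 2 markers for most types, untyped cells assigned by 30 neighbours (189 of the final cells), 190 cells called doublets by synthetic doublets, and outliers in depth or mitochondrial share removed. UMIs were summed per type and sex, or per type and lane for sex, and tested with edgeR 4.0.16 (TMM, minimum count 10, robust quasi-likelihood, Benjamini-Hochberg over all genes kept, two-sided, limit 0.001), checked on simulated counts. DESeq2 1.42.0 was an alternative. Shares carry exact binomial intervals, and intervals and floors of 3 counts cover counting error only. Thinned cells held 2000 UMIs. Clusters were made with scanpy 1.11.5 (30 neighbours, Leiden resolution 0.5).

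The genes named were the 5 members, all other SOX genes, 3 lists and the genes most like each member, of which the first is printed. The members and lists were chosen with earlier results of these data known. Sequences are from RefSeq.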

Additional observations from a re-analysis of the deposited data

Results flagged for a closer look

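In each case below the male against female change differed between 2 cell types by a test of the difference itself. The tests came from 1 edgeR fit over all sums of type and lane, with no term for lane. Sums of different types from 1 lane were thus treated as independent. The 5 genes were tested in 28 pairs of types, with p adjusted within a pair, and only cases past the limit are listed. *Sox4* in G missed it against C, T, S, Le and EC (edgeR adjusted p = 0.0087, 0.34, 0.024, 0.0062 and 0.0032). *Sox11* in G missed it against C, S and L (edgeR adjusted p = 0.012, 0.069 and 0.096), and also against T, Le and EC. *Sox2* in S missed it against C, G, T, L, Le and EC (edgeR adjusted p = 0.0055, 0.51, 0.72, 0.88, 0.78 and 0.80). The differences are between changes on the log2 scale, and all rest on 2 lanes of 1 pool per sex.

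*Sox4* changed differently in FSC and G: the FSC change less the G change was 2.91 ± 0.51 (edgeR adjusted p = 0.00092). *Sox4* also changed differently in G and L, with a G change less the L change of -3.37 ± 0.54 (edgeR adjusted p = 0.00031). *Sox11* gave 8.87 for FSC less G (edgeR adjusted p = 1.1e-07), a fitted value that depends on the prior count because male G had no *Sox11* UMI. *Sox2* gave -1.43 ± 0.29 for FSC less S (edgeR adjusted p = 0.00016). Sex, age and pool cannot be told apart in these lanes.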

How the results depend on the processing

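No paired analysis was possible because the labels number the replicates of each sex but do not say which barcode lane is which replicate. Of the alternatives for 45 shares, 374 moved a value by no more than the SD over lanes and 31 by more. Many of these could hardly move a share. Leaving out a single lane keeps most of the cells, and leaving out HPC with an FSC marker UMI cannot change FSC, Le, EC or E. The tally is therefore no measure of how firm the shares are. With the tests, 288 alternatives kept direction and side of the limit, 13 lost the call, 5 gained it and 13 turned direction, none of the last for a called gene. Where no construction is named, the cause was not tested. Scaling by library size alone moved the median of all genes from 0.09 to 0.40 for FSC against HPC, from 0.02 to 0.15 for C against the other HPC and from 0.01 to 0.28 for sex in G, with -0.0056 and -0.14 for sex in T.

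*Sox6* in FSC and *Sox9* in C had no UMI in 1 of the types averaged, so their fitted values depend on the prior count. *Sox6* in FSC passed with no filter (2.63) and with sums per lane (2.41). *Sox9* in C turned with DESeq2 (-0.48) and ranged from -0.28 to 0.55 without single lanes. Without single lanes, *Sox4* in FSC ranged from 2.39 to 2.50, *Sox2* in C from 1.79 to 2.61, *Sox2* in S from 1.39 to 1.55 and *Sox4* in S from -0.76 to -0.48. The male against female change of *Sox4* in G missed the limit with doublets and outliers kept (-2.28), and that of *Sox11* in G with DESeq2 (-6.54). For *Sox2* in S the call was lost with cells typed by markers alone (1.29) and with DESeq2 (1.47), and for *Sox4* in S with library size alone (-0.55), markers alone (-0.59) and DESeq2 (-0.62). Uncalled sex effects turned without single lanes: in FSC, *Sox2* ranged from -0.017 to 0.085, *Sox4* from -0.24 to 0.14, *Sox6* from -0.054 to 0.45 and *Sox9* from -0.20 to 0.24, with *Sox9* at -0.06 without the male lane of 2047 cells. *Sox4* in Le ranged from -0.50 to 0.59 and *Sox2* in C from -0.22 to 0.24, with -0.08 without the male lane of 2085 cells, -0.019 with markers alone, -0.023 with outliers and doublets kept and -0.0056 with DESeq2.

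Numbers of genes past the limit moved by over 1.5 times as follows. FSC against HPC had 3602, and 5438 with sums per lane. C against the other HPC had 829, 1779 with no filter and 2219 with sums per lane. For sex, FSC had 615 and 221 with DESeq2 (188 to 648 without single lanes), C 62, 94 with no filter and 27 with DESeq2, and G 307, 473 with library size alone and 591 with no filter (321 to 484 without single lanes). T had 36, 67 with no filter and 13 with DESeq2 (33 to 83 without single lanes), S 1307 and 552 with DESeq2, L 1594, 2998 with library size alone and 691 with DESeq2. Le had 41, 68 with no filter and 22 with DESeq2 (46 to 78 without single lanes), and EC 43, 66 with no filter and 12 with DESeq2.

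Counting cells with 1 UMI raised *Sox2* to 71.7% of FSC and 19.6% of C, *Sox4* to 74.0% of FSC and 69.1% of L and *Sox11* to 22.7% of FSC. Thinning, which leaves fewer UMIs per cell, gave *Sox2* 31.4% of FSC and 3.91% of C, *Sox4* 38.9% of FSC, 21.8% of L and 54.9% of EC, *Sox6* 1.38% of FSC and 3.41% of C, *Sox9* 25.9% of FSC and *Sox11* 6.87% of FSC. *Sox2* with *Sox9* in FSC gave 1.05 times the expected number without strata of depth and 1.14 after thinning. The latter lay above the ratio of every lane before thinning. Leaving out a lane for the FSC markers in C and setting list genes to their bound were chosen after seeing the data. For the *Sox2* C the markers ranged from 14.1 to 31.5 CPM without single lanes.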

Other observations

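*Sox8*, a factor close to *Sox9* in sequence, was found in FSC and hardly elsewhere in the gland: 143 of 2315 FSC were above threshold, against 2 of 3492 HPC. Its FSC level was 17.6 and 19.5 CPM in the female lanes and 2.69 and 3.47 CPM in the male lanes, which did not overlap. The male level was lower by a log2 value of -2.62 ± 0.24 (edgeR adjusted p = 1.5e-11), while *Sox9* in the same cells differed by 0.01 ± 0.20 (edgeR adjusted p = 0.98). Among the remaining SOX genes, *Sox14* was found in 5 of 86 T, with 6 UMIs.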
